A study of Mus musculus with 12 samples.

Results

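Messenger RNA of 10 enzymes that build purine and pyrimidine nucleotides was followed in CH12F3-2A, a cultured mouse lymphoma line of B cell origin that displays IgM and is used to study switching to IgA. The members are the genes Ppat, Gart, Pfas, Paics, Atic and Impdh2 of the purine route and Cad, Dhodh, Umps and Ctps of the pyrimidine route, taken by symbol from 56941 genes in the deposited count table. All 10 were found, and all 10 passed the filter on low counts that kept 16794 genes. The cells had received a pX459 plasmid, which carries Cas9, with either a non-targeting guide (sgCtr) or a guide against Nop16 (sgNop16), and every group, controls included, went through 72 h of puromycin selection. They were then left without stimulation or treated for 24 h with CIT, a cocktail of 1 μg/ml anti-CD40L, 20 ng/ml mouse IL-4 and 1 ng/ml human TGF-β that induces switching. The 4 groups, called sgCtr_no, sgCtr_CIT, sgNop16_no and sgNop16_CIT, had 3 libraries each, which the labels call biological replicates. Only 1 guide label against Nop16 was used, and the sources used here do not say whether cells were cloned, so a guide difference cannot be told apart from an effect of that guide or cell pool.

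Purine nucleotides are assembled step by step on a ribose phosphate until IMP is formed, and IMP is then turned into AMP or GMP. Pyrimidine nucleotides start as a free ring, orotate, which is joined to ribose phosphate to give UMP, and CTP is later made from UTP. Dividing lymphocytes depend heavily on both routes, and drugs against IMPDH (mycophenolate) and DHODH (leflunomide) are used to restrain them. Several of these genes are known targets of the transcription factor MYC, which binds the E-box CACGTG.

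The promoter windows of the members were searched for this motif. RefSeq windows of 300 bases (GRCm38.p6, 250 before to 50 after the annotated start) were matched for 8 members, all but Pfas and Dhodh. The E-box CACGTG, which reads the same on both strands, was present in 3 of these 8, against 8.09% of 27025 genes with a window. The 3 sites are shown with 12 bases on either side on the gene's own strand, 5′ to 3′, with the E-box in capitals.
Paics: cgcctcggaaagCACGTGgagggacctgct
Atic: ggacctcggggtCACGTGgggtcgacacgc
Impdh2: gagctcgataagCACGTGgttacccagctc
The stretch at Paics is chr5:76951087-76951116 on the plus strand, and its E-box begins 203 bases before the Paics start, inside an annotated exon of the neighbouring Ppat. The stretch at Atic is chr1:71557137-71557166 on the plus strand, with the E-box beginning 7 bases before the RefSeq start, inside an exon annotated for Atic in GENCODE M21. The stretch at Impdh2 is chr9:108560314-108560343 on the plus strand, with the E-box beginning 110 bases before the RefSeq start, likewise inside an exon annotated for Impdh2 in GENCODE M21. On either strand, the variant CACGCG was in 0 of the 8 members (10.5% of genes), CCAAT in 4, namely Gart, Paics, Atic and Impdh2 (41.1%), and the GC box GGGCGG in 8 (38.2%). These are matches of letters in a short window and do not show binding, and an E-box outside the window would not be seen. The shares over all genes were not matched for base composition, and no difference from them was tested.

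Ppat and Paics stand head to head on chromosome 5, with RefSeq starts 276 bases apart on opposite strands. Their exons overlap by 272 bases in GENCODE M21, which is 6.15% of the exon bases of Ppat and 8.67% of those of Paics. The library kit keeps strand, but whether counting used strand is not stated, so reads from the overlap could have been given to either gene. Gart, Impdh2 and Umps also overlap a gene on the opposite strand, over 19.71%, 1.56% and 6.11% of their exon bases. That gene held at most 1.5% of the count of Gart (Gm15964), 5.97% of that of Impdh2 (Ndufaf3) and 0.453% of that of Umps (Gm15829) in any library. These shares do not show how many reads from the overlaps were given to the members. Mir3062, which lies within Pfas on the same strand, held at most 0.155% of the Pfas count.

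Total counts per library lay between 38866418 and 48615177, and no 2 libraries were identical. Nop16 mRNA was lower with its guide in both states. Unstimulated cells held 85.7 ± 3.10 CPM with it and 106 ± 2.35 CPM with the control guide, and stimulated cells held 65.7 ± 0.930 and 77.1 ± 3.46 CPM (SD, n = 3). These log2 differences were -0.31 ± 0.04 (SE) and -0.23 ± 0.04, and most of the mRNA remained. CPM are counts scaled to library size, with TMM factors. The 8 B cell markers were all present and summed to between 6256 and 9213 CPM per library. T cell markers summed to 0.526 to 2.60 CPM, macrophage markers to 7.70 to 18.2 CPM, fibroblast markers to 0.332 to 0.919 CPM and erythroid markers to 0.798 to 1.61 CPM. Lyz2, Col1a2, Pdgfra and Dcn had no count in any of the 12 libraries. The macrophage sum was higher with CIT in both guides, with means of 8.44 and 13.4 CPM in sgCtr_no and sgCtr_CIT and of 10.3 and 16.7 CPM in sgNop16_no and sgNop16_CIT, and its part in the results was not tested. Lyz2 aside, of its 5 markers Csf1r went from 0.811 to 4.54 CPM in sgCtr and from 1.46 to 7.75 CPM in sgNop16 cells, Cd68 from 6.92 to 8.12 and from 8.39 to 8.003 CPM, Adgre1 from 0 to 0.686 and from 0.319 to 0.916 CPM, and Itgam from 0.704 to 0 and from 0.127 to 0.0549 CPM. In such bulk RNA, a change of the mRNA per cell and a change in the share of cells that hold it cannot be told apart.

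Without CIT, the members spanned more than an order of magnitude per length of mRNA. Per kilobase of the principal transcript, Impdh2, whose enzyme catalyses the committed step to GMP, stood highest in sgCtr_no cells at 176 ± 8.64 CPM per kb (SD, n = 3). Gart followed at 154 ± 1.11 and Paics at 125 ± 3.42, and Atic stood at 76.8 ± 0.649 CPM per kb. Ctps, Umps and Cad lay close together at 52.5 ± 2.61, 49.6 ± 1.10 and 47.6 ± 1.55 CPM per kb, with neighbouring values about as far apart as their spread. Ppat at 39.8 ± 0.523, Pfas at 32.7 ± 0.750 and Dhodh at 15.5 ± 1.33 CPM per kb closed the order. Dhodh, the mitochondrial dihydroorotate dehydrogenase, was thus the member with the least mRNA per length in all 4 groups. Counted instead over all annotated exon bases of a gene, Atic moved from rank 4 to rank 8 and Dhodh stayed last, and Impdh2 and Gart were within their spread of each other (106 ± 5.22 and 105 ± 0.757 CPM per kb).

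**Figure D1:**
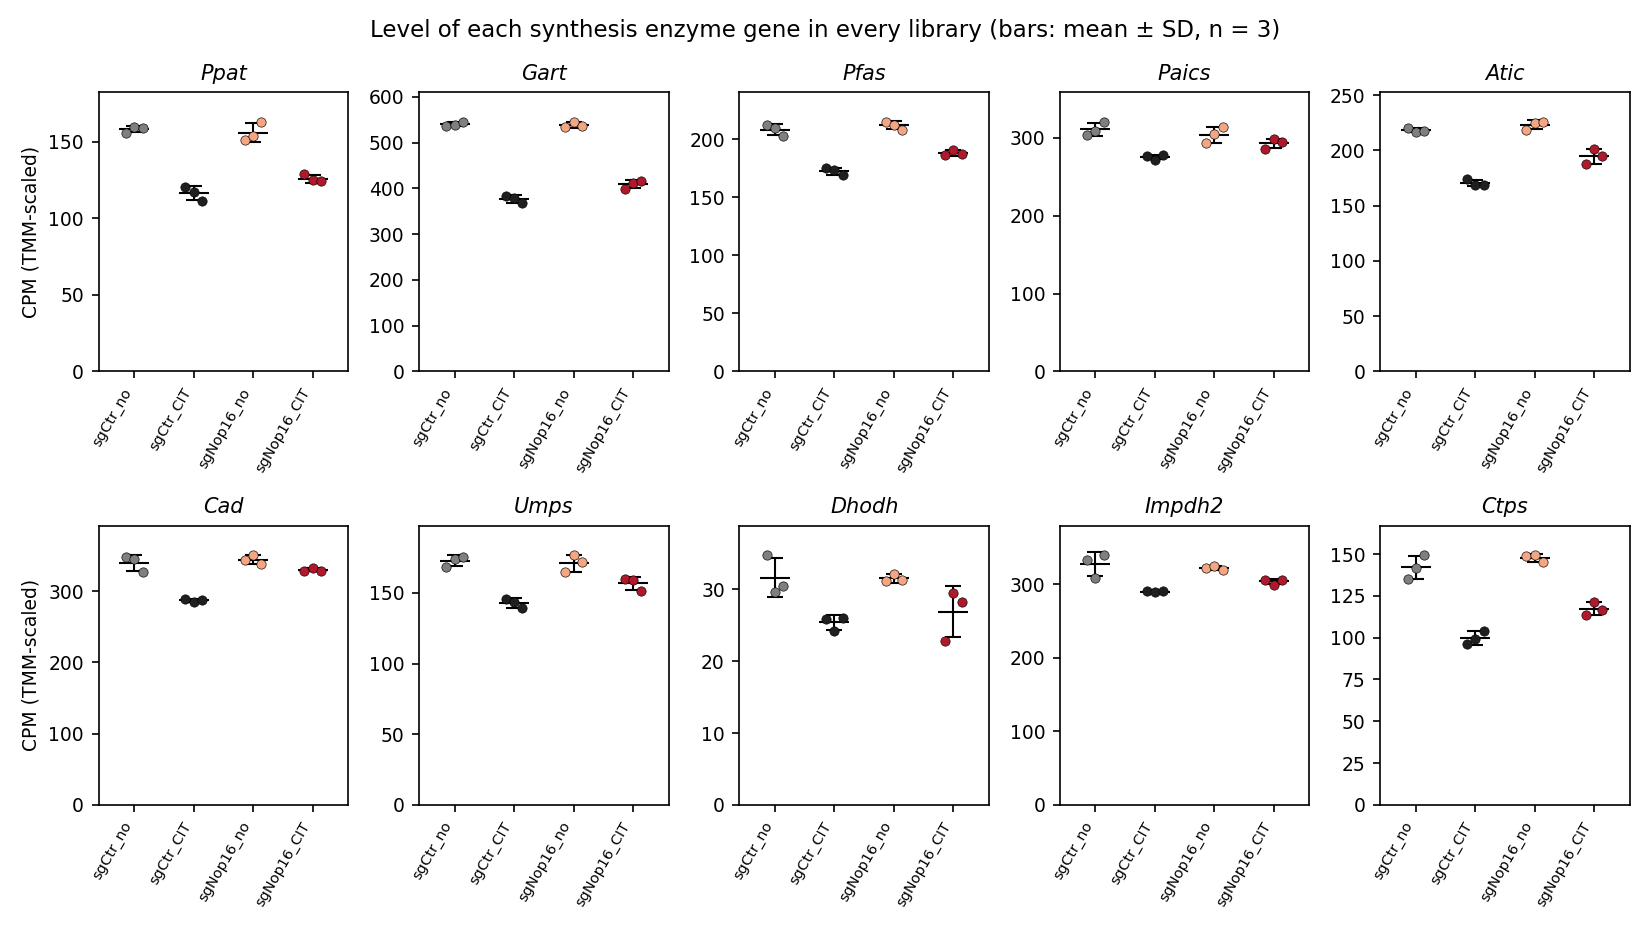
Level of each member in every library. The y axis is CPM on a linear scale from 0, each point is 1 library, and bars give the mean ± SD of 3 libraries for sgCtr_no, sgCtr_CIT, sgNop16_no and sgNop16_CIT. In each of the 10 panels the sgCtr_CIT points lie below the sgCtr_no points, and in 9 of them the sgNop16_CIT points lie above the sgCtr_CIT points.

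The first comparison asks how stimulation changed these enzymes in cells with the control guide. All 10 members fell with CIT. Impdh2 fell by 11.4%, the smallest change, and Gart fell by 30.3%, the largest, and in all 10 the stimulated libraries lay below the unstimulated ones. A gene is called here at an adjusted p under 0.05 (edgeR's quasi-likelihood test, Benjamini-Hochberg over all tested genes). Of all tested genes, 20.9% were called lower, and 25% had stimulated libraries below all unstimulated ones. The median log2 difference was -0.29 over the members and 0.02 over all tested genes. The summed level of the 10 went from 2450 ± 16.5 to 1957 ± 19.0 CPM, so that it fell by 20.1%.

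At the entry to the purine route stands Ppat, whose enzyme transfers the first nitrogen onto the ribose phosphate and is the point of feedback control. Its level was 156, 160 and 159 CPM without CIT and 121, 117 and 111 CPM with CIT. All stimulated libraries were well below the unstimulated ones, a log2 difference of -0.44 ± 0.04 (SE, adjusted p = 8.48e-08).

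Gart encodes an enzyme with 3 activities in the middle of the route. It gave the largest fall among the members, from 537, 539.7 and 545 to 384, 379 and 368 CPM (-0.52 ± 0.02, adjusted p = 4.02e-11). The gap between the states was many times the spread within each of them.

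Pfas, which adds a further nitrogen from glutamine, went from 212, 209 and 203 to 175, 174 and 169 CPM (-0.27 ± 0.03, adjusted p = 1.37e-06). Paics, whose product carries out a later pair of steps, went from 304, 309 and 321 to 276, 272 and 278 CPM (-0.18 ± 0.03, adjusted p = 0.000188). Paics fell by 11.5%, while its head-to-head neighbour Ppat fell by 26.5%.

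Atic, which closes the ring to give IMP, went from 221, 217 and 218 to 174, 169 and 169 CPM (-0.36 ± 0.03, adjusted p = 1.09e-07). Impdh2 went from 334, 309 and 339.5 to 291, 289 and 290.4 CPM (-0.17 ± 0.03, adjusted p = 0.00024). The unstimulated Impdh2 libraries were spread over a wider range than the stimulated ones, and the groups still did not overlap.

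On the pyrimidine side, Cad encodes the large protein that carries out the opening steps of the route. Cad went from 348, 344.5 and 327 to 289, 284 and 287 CPM (-0.24 ± 0.03, adjusted p = 1.80e-06). Dhodh, at a far lower level, went from 34.7, 29.7 and 30.5 to 25.95, 24.2 and 26.05 CPM (-0.32 ± 0.09, adjusted p = 0.0092). Its highest unstimulated library stood apart from the other two, and without that library, sgCtr_no replicate 1, the difference was -0.24 and was not called (adjusted p = 0.0586).

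Umps, whose enzyme turns orotate into UMP, went from 169, 174 and 176 to 146, 143 and 139 CPM (-0.27 ± 0.04, adjusted p = 1.08e-05). Ctps, the CTP synthase gene, went from 135, 142 and 149 to 96.1, 99.4 and 104 CPM (-0.51 ± 0.04, adjusted p = 5.73e-08). Gart and Ctps, 1 from each route, thus had the largest falls, and the summed purine and pyrimidine members fell by 20.5% and 19.1%.

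Myc itself was at 454, 449.5 and 462 CPM without CIT and at 204, 198 and 189.6 CPM with CIT in sgCtr cells, and fell by 56.6%. Each of the 10 enzyme genes fell by a smaller fraction than Myc did, and the part of Myc in their fall was not tested.

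In cells with the Nop16 guide the same comparison gave smaller estimates. CIT was followed by a called fall in 7 of the 10 members, and 0 rose, against 18.2% of all tested genes called lower and 18.9% called higher, and 9 of the 10 had stimulated libraries below all unstimulated ones (22.7% of all tested genes). The median log2 difference over the members was -0.18, against 0.01 over all tested genes. The summed level went from 2451 ± 25.8 to 2146 ± 24.3 CPM, so that it fell by 12.4%.

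Gart again had the largest fall, from 534.5, 545 and 536 to 399.6, 411.5 and 417 CPM (-0.40 ± 0.02, adjusted p = 1.49e-09). Ctps went from 149, 149 and 145 to 114, 121.5 and 117 CPM (-0.33 ± 0.04, adjusted p = 9.39e-06). In both genes the states were clearly apart.

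Ppat went from 151, 154 and 163 to 129, 125 and 124 CPM (-0.31 ± 0.04, adjusted p = 6.98e-06). Atic went from 218.5, 225 and 226 to 188, 201 and 195 CPM (-0.20 ± 0.03, adjusted p = 9.39e-05). Pfas fell by 11.3% and Umps by 8.25%, and the Umps call ended without sgNop16_CIT replicate 3 (adjusted p = 0.0576).

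Impdh2 was at the edge of the threshold, going from 322, 325 and 319.9 to 307, 299.9 and 306 CPM (-0.08 ± 0.03, adjusted p = 0.0457). Its groups did not overlap, but the call ended in 5 of the 6 leave-one-out fits, those without sgNop16_no replicate 1 or 2 or any sgNop16_CIT replicate (adjusted p up to 0.14), and with no low-count filter, a stricter filter or library totals in place of TMM.

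The other three were not called. Cad went from 344, 350 and 338 to 329, 332.5 and 328 CPM (-0.06 ± 0.03, adjusted p = 0.0959), with stimulated libraries just below the unstimulated ones, and was called without sgNop16_no replicate 3 (adjusted p = 0.0433). Paics went from 294, 305 and 314 to 286, 298 and 294 CPM (-0.06 ± 0.03, adjusted p = 0.19), with overlapping groups, and was called without sgNop16_no replicate 1 (adjusted p = 0.039). Dhodh went from 31.1, 32.2 and 31.3 to 22.8, 29.5 and 28.3 CPM (-0.23 ± 0.09, adjusted p = 0.0573), and was called without sgNop16_CIT replicate 2 (adjusted p = 0.0257), with DESeq2, with the stricter filter, with counts divided by 4 and with a robust fit.

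**Figure D2:**
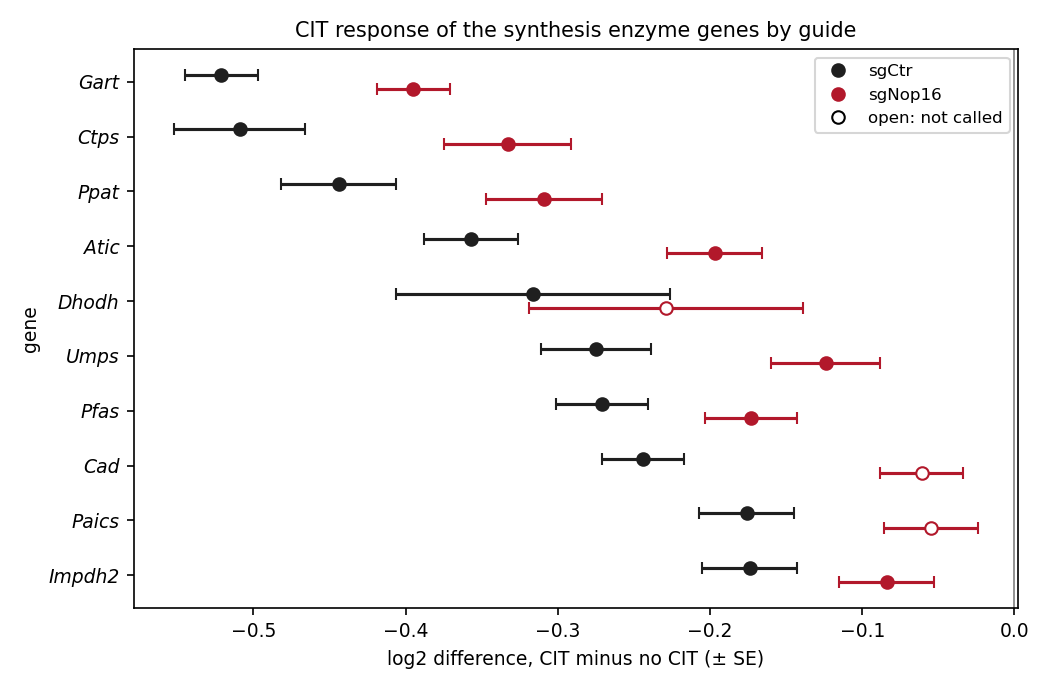
CIT response of the 10 members with the control guide (black) and with the Nop16 guide (red). The x axis is the log2 difference of CIT minus no CIT, bars are the SE of the fit, and open points were not called. All points lie below 0, from -0.52 for Gart in sgCtr cells to -0.06 for Paics in sgNop16 cells, and each red point lies to the right of its black point.

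The next question is whether the guide changed these genes at rest. Before stimulation, the members stood at nearly the same levels with both guides. With edgeR, 0 of 10 were called, 0 of 10 had an unadjusted p under 0.05, and DESeq2 also called 0, while 1.79% of all tested genes were called higher and 1.53% lower. The log2 differences ran from -0.03 ± 0.03 (Paics) to 0.06 ± 0.04 (Ctps), and in all 10 the libraries of the guides overlapped (of all tested genes, 9.44% were apart and higher, 9.4% apart and lower). The summed level was 2451 ± 25.8 CPM with the Nop16 guide and 2450 ± 16.5 CPM with the control guide. Myc did not differ beyond its spread either, at 463 ± 4.24 against 455 ± 6.49 CPM (0.02 ± 0.03, adjusted p = 0.802).

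After CIT all 10 estimates were above 0, that is higher with the Nop16 guide. Of the 10, 6 were called higher, namely Ctps, Cad, Atic, Umps, Pfas and Gart, against 3.39% of all tested genes called higher and 2.77% called lower, and 9 had all sgNop16_CIT libraries above all sgCtr_CIT libraries (13.2% of all tested genes). The differences were small, between 4.76% (Impdh2) and 17.6% (Ctps), with a median log2 difference of 0.12 over the members and 0.01 over all tested genes. The summed level was 9.67% higher, with 8.07% for the purine and 13.7% for the pyrimidine members.

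Ctps showed the largest difference, at 114, 121.5 and 117 against 96.1, 99.4 and 104 CPM (0.23 ± 0.04, adjusted p = 0.00354). Cad was at 329, 332.5 and 328 against 289, 284 and 287 CPM (0.20 ± 0.03, adjusted p = 0.000337). The 3 Cad libraries of each group lay within a few CPM of one another, and the gap between the groups was many times that spread.

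Atic was at 188, 201 and 195 against 174, 169 and 169 CPM (0.19 ± 0.03, adjusted p = 0.00165). Gart was at 399.6, 411.5 and 417 against 384, 379 and 368 CPM (0.12 ± 0.02, adjusted p = 0.0075). Neither gene overlapped between the guides.

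Pfas was at 186, 191 and 188 against 175, 174 and 169 CPM (0.12 ± 0.03, adjusted p = 0.0194). Umps was at 160, 159 and 152 against 146, 143 and 139 CPM (0.14 ± 0.04, adjusted p = 0.0371). Their libraries did not overlap, but the calls were less firm. That of Pfas ended without sgCtr_CIT replicate 3 or sgNop16_CIT replicate 2 or 3 (adjusted p = 0.0833, 0.08 and 0.0574). That of Umps ended in 5 of the 6 leave-one-out fits, the exception being sgNop16_CIT replicate 3 (adjusted p up to 0.145), and in 4 other fits, those with no low-count filter, library totals, the replicate block or only the stimulated groups.

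The other four members were not called. Ppat was at 129, 125 and 124 against 121, 117 and 111 CPM (0.11 ± 0.04, adjusted p = 0.103), Paics at 286, 298 and 294 against 276, 272 and 278 CPM (0.09 ± 0.03, adjusted p = 0.111), and Impdh2 at 307, 299.9 and 306 against 291, 289 and 290.4 CPM (0.07 ± 0.03, adjusted p = 0.268). In these 3 the sgNop16 libraries were all above the sgCtr ones, and DESeq2 called Ppat and Paics (adjusted p = 0.0342 and 0.0428). Dhodh, at 22.8, 29.5 and 28.3 against 25.95, 24.2 and 26.05 CPM (0.08 ± 0.09, adjusted p = 0.723), was the only member whose libraries overlapped. Myc was higher too, at 239, 251 and 244 against 204, 198 and 189.6 CPM (0.31 ± 0.03, adjusted p = 1.25e-05), without overlap, and its part in the difference of the enzymes was not tested.

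**Figure D3:**
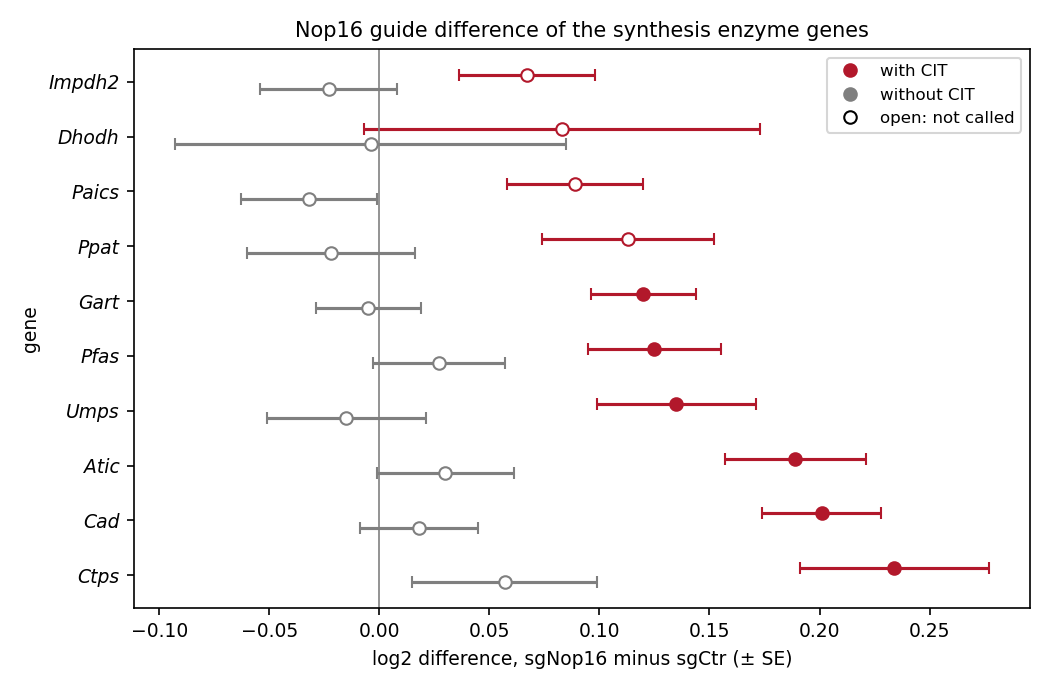
Nop16 guide difference of the 10 members with CIT (red) and without CIT (grey). The x axis is the log2 difference of sgNop16 minus sgCtr, bars are the SE of the fit, and open points were not called. Grey points lie between -0.03 and 0.06, while red points lie between 0.07 and 0.23.

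Whether the CIT response itself differed between the guides was tested as an interaction, which draws on the same 12 libraries as the comparisons above. The response was weaker with the Nop16 guide for Cad alone at the threshold. The difference of its log2 responses was 0.18 ± 0.04 (adjusted p = 0.0218), while 0.881% of all tested genes were called in this direction and 1.25% in the other. The estimates of the 10 members ran from 0.09 ± 0.13 (Dhodh) to this value, with a median of 0.13 against 0.01 over all tested genes, and 8 of 10 had an unadjusted p under 0.05, as did 1210 of the 16794 tested genes in this direction. Gart at 0.13 ± 0.03 (adjusted p = 0.0758) and Atic at 0.16 ± 0.04 (adjusted p = 0.0816) came next, and DESeq2 called both (adjusted p = 0.00709 and 0.00869). The Cad call ended in 6 of the 12 leave-one-out fits, those without sgCtr_no replicate 1 or 2, sgCtr_CIT replicate 2, sgNop16_no replicate 1 or 3 or sgNop16_CIT replicate 2 (adjusted p between 0.0577 and 0.0812). For Myc the difference of responses was 0.29 ± 0.04 (adjusted p = 0.00183).

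Both IMP dehydrogenase and CTP synthase exist as a pair of isoenzymes. With CIT, the partner gene Impdh1 fell by a larger fraction than Impdh2, while the partner gene Ctps2 rose. Impdh1 had far less mRNA per length than Impdh2, at 8.79 ± 1.06 against 176 ± 8.64 CPM per kb in sgCtr_no cells. CIT lowered Impdh1 from 20.4, 25.9 and 22.3 to 9.49, 9.11 and 10.8 CPM in sgCtr cells (-1.22 ± 0.10, adjusted p = 6.45e-08) and from 22.6, 25.03 and 23.2 to 9.93, 9.28 and 9.61 CPM in sgNop16 cells (-1.30 ± 0.10, adjusted p = 3.83e-08). Impdh1 was thus at 5.01 ± 0.847% of Impdh2 per length before and 2.41 ± 0.217% after CIT in sgCtr cells, and at 5.23 ± 0.251% and 2.26 ± 0.0531% in sgNop16 cells. The guide difference of Impdh1 was -0.03 ± 0.10 with CIT (adjusted p = 0.93).

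Ctps2 went the opposite way to Ctps. It rose with CIT from 31.5, 30.4 and 34.9 to 41.5, 42.8 and 43.3 CPM in sgCtr cells (0.40 ± 0.07, adjusted p = 0.000386) and from 28.4, 30.6 and 29.6 to 32.5, 40.0 and 35.7 CPM in sgNop16 cells (0.29 ± 0.08, adjusted p = 0.00637). Relative to Ctps per length it went from 18.3 ± 0.865% to 34.4 ± 0.681% in sgCtr cells and from 16.1 ± 0.660% to 24.7 ± 1.75% in sgNop16 cells. With CIT, Ctps2 was lower with the Nop16 guide in all libraries, by a log2 difference of -0.24 ± 0.08 that was not called (adjusted p = 0.0753), although it was called with DESeq2, with the stricter filter and without sgNop16_CIT replicate 2 (adjusted p down to 0.0101).

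**Figure D4:**
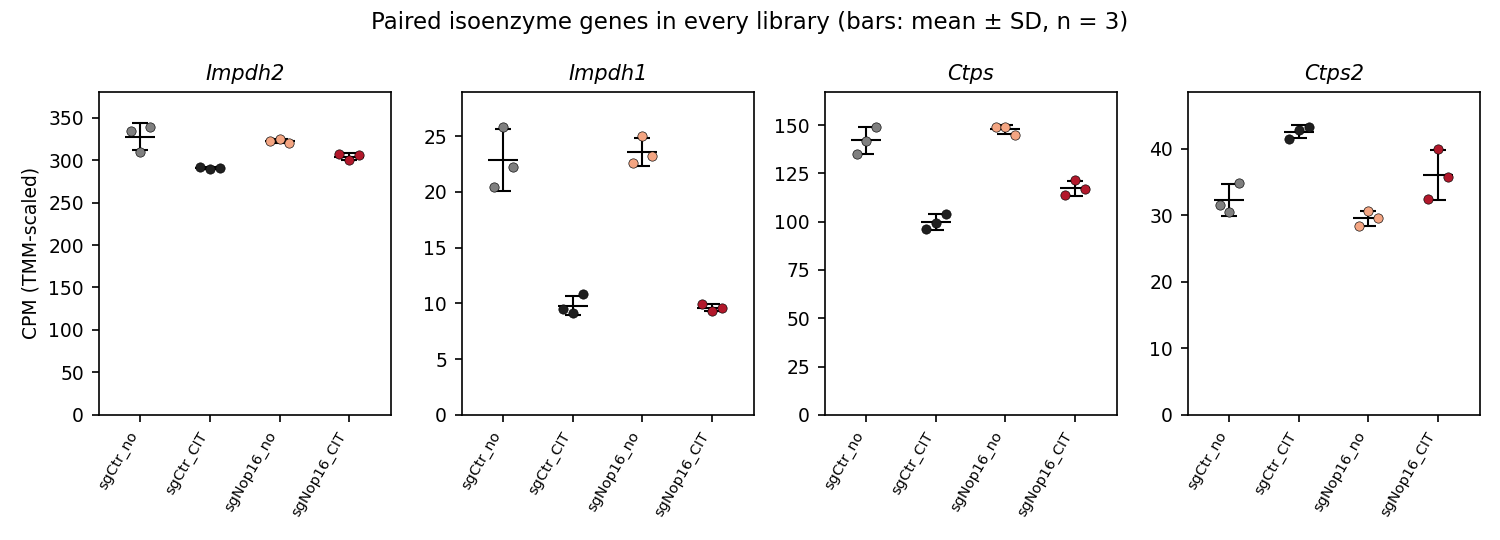
Levels of the isoenzyme pairs Impdh2 and Impdh1 and Ctps and Ctps2 in every library. The y axes are CPM on linear scales from 0 that differ between panels, each point is 1 library, and bars give the mean ± SD of 3 libraries. Impdh1 goes from above 20 to about 10 CPM with CIT with both guides, and Ctps2 rises where Ctps falls.

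Other genes of nucleotide metabolism are given by list, to be read against all tested genes, of which 20.4% were called higher and 20.9% lower with CIT in sgCtr cells and 18.9% and 18.2% in sgNop16 cells. Of 10 further genes of the de novo routes and their ribose phosphate supply, 6 fell and 2 rose in sgCtr cells, and 5 fell and 3 rose in sgNop16 cells. The median log2 differences were -0.28 and -0.11. Prps2, which makes the ribose phosphate donor PRPP, went from 104 ± 0.831 to 66.4 ± 3.11 CPM (-0.65 ± 0.04) in sgCtr cells, and Impdh1 is given above. Adssl1, an adenylosuccinate synthase on the branch to AMP, rose from 106, 103 and 109 to 272, 285 and 281 CPM with the control guide (1.40 ± 0.04) and from 105.5, 105 and 98.5 to 187, 180.5 and 189 CPM with the Nop16 guide (0.85 ± 0.04). Its stimulated level was therefore lower with the Nop16 guide, without overlap (-0.59 ± 0.04, adjusted p = 1.18e-07), and its CIT response was smaller (difference of log2 responses -0.55 ± 0.05, adjusted p = 3.83e-05).

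Of 14 salvage genes, whose enzymes recycle bases and nucleosides, 12 passed the filter. In sgCtr cells 6 fell and 1 rose, and in sgNop16 cells 6 fell and 1 rose, with median log2 differences of -0.15 and -0.16. The largest falls in sgCtr cells were those of Ada, adenosine deaminase, from 29.7 ± 1.24 to 14.9 ± 1.83 CPM (-0.999 ± 0.104), and Aprt, adenine phosphoribosyltransferase, from 139.5 ± 2.48 to 88.5 ± 0.102 CPM (-0.66 ± 0.03). Uck1, a uridine-cytidine kinase gene, rose by 0.27 ± 0.07 in sgCtr cells, and Pnp, purine nucleoside phosphorylase, by 0.20 ± 0.08 in sgNop16 cells. The Pnp call ended in 5 of the 6 leave-one-out fits (adjusted p up to 0.26).

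Of 12 nucleotide kinase and deoxynucleotide genes, 8 fell and 0 rose in sgCtr cells (0 higher at an unadjusted p under 0.05), and 7 fell and 1 rose in sgNop16 cells, with median log2 differences of -0.29 and -0.16. Dctd, deoxycytidylate deaminase, and Dtymk, thymidylate kinase, had the largest falls in sgCtr cells at -0.58 ± 0.07 and -0.46 ± 0.05. Tyms, thymidylate synthase, rose by 0.13 ± 0.05 in sgNop16 cells, a call that ended in 5 of the 6 leave-one-out fits (adjusted p up to 0.199). Of 11 breakdown genes, 6 passed the filter, and in each guide 1, the AMP deaminase gene Ampd3, rose and 1, the dNTP hydrolase gene Samhd1, fell, which is no more than the share over all tested genes. In sgCtr cells the Ampd3 call ended in 2 and the Samhd1 call in 4 of the 6 leave-one-out fits (adjusted p up to 0.147 and 0.15).

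**Figure D5:**
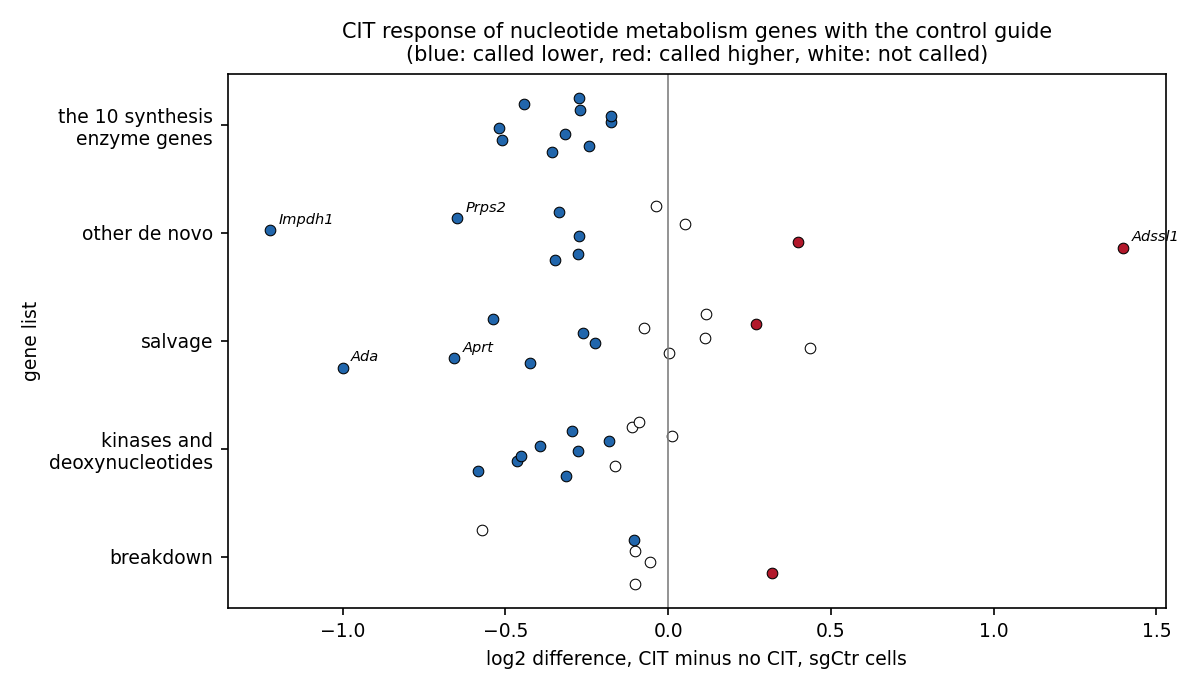
CIT response of nucleotide metabolism genes in sgCtr cells, by list. The x axis is the log2 difference of CIT minus no CIT, each point is 1 tested gene, blue points were called lower, red points higher and white points were not called. The 10 members lie between -0.52 and -0.17. In the kinase and deoxynucleotide list 11 of 12 genes lie below 0, and the highest value is 0.011. The remaining lists spread to both sides of 0, with Impdh1 at -1.22 and Adssl1 at 1.40.

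For the guide, 1.79% of all tested genes were called higher and 1.53% lower without CIT, and 3.39% and 2.77% with CIT. Without CIT, 3 of 12 kinase and deoxynucleotide genes were lower with the Nop16 guide, with Dut at -0.21 ± 0.05 and Tyms at -0.20 ± 0.05, and each of these 2 calls ended in 5 of the 6 leave-one-out fits (adjusted p up to 0.146 and 0.169). The third was Rrm2, a ribonucleotide reductase subunit gene named after its value was seen (-0.13, adjusted p = 0.0302). Whether the Rrm2 call holds in the leave-one-out and other alternative fits was not examined. No gene of the other 3 lists was called in edgeR. The 2 with the smallest p in each were Prps2 (-0.13 ± 0.04) and Prpsap1 (-0.09 ± 0.05), Uck1 (0.18 ± 0.07) and Tk1 (-0.11 ± 0.04), and Samhd1 (0.10 ± 0.04) and Nt5c2 (-0.04 ± 0.06). Of these, DESeq2 called only Prps2 (adjusted p = 0.0211). With CIT, the median guide differences were 0.07 over the 10 further de novo genes, -0.03 over 12 salvage genes and 0.02 over 12 kinase and deoxynucleotide genes. Adssl1, given above, was called lower with the Nop16 guide (-0.59 ± 0.04). Called higher were 2, 2 and 1 genes of these lists. They were Prps1 (0.20 ± 0.04), Prpsap1 (0.17 ± 0.05), Adk (0.19 ± 0.05), Uck2 (0.12 ± 0.03) and Nme1 (0.13 ± 0.04). None of these 5 calls held in all 6 leave-one-out fits, where the adjusted p reached 0.0758, 0.211, 0.131, 0.0944 and 0.197 in this order. None of the 6 tested breakdown genes was called with CIT in edgeR, the nearest being Ampd2 at 0.14 ± 0.05 (adjusted p = 0.112), which DESeq2 called.

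Profiles were compared over a pool of 7379 genes with at least 20 CPM and a symbol that is not a gene model name. The pool left out all genes of the lists used here, so Myc, Nop16, the markers and the other nucleotide metabolism genes were not ranked. Across the 12 libraries, the genes of this pool whose log2 CPM most resembled the mean profile of the 10 members were Atf4 (Pearson's r = 0.994), Bcat1 (0.993), Eprs (0.993), Pum3 (0.991) and Parl (0.990). These values are a description without a test. The libraries share the difference between stimulated and unstimulated cells, and 1000 of the 7379 genes had r over 0.9. After subtracting each group's mean, r over the 12 libraries was 0.733, 0.524, 0.647, 0.736 and 0.332 for the same genes in order. The genes were picked by r over these same libraries, which can raise these values too. No such r was computed for the rest of the pool. Atf4, a stress-responsive transcription factor gene, was at 284.5 ± 3.26 CPM in sgCtr_no, 195 ± 1.33 in sgCtr_CIT, 278.5 ± 7.06 in sgNop16_no and 225 ± 9.50 CPM in sgNop16_CIT cells. Bcat1, a branched-chain aminotransferase gene, was at 187 ± 4.47, 108 ± 1.98, 184 ± 6.66 and 131 ± 3.39 CPM in the same order.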

How the data were processed

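RNA-seq counts of 12 libraries were analysed. The authors deposited 1 table of estimated counts per Ensembl gene, whole numbers not scaled to library size. Per the submitters' processing notes, which state no roles, HISAT2 2.2.1, StringTie 2.2.1 and GRCm39 were used. The sources used here do not give the annotation release. Symbols came from GENCODE M21 (GRCm38) for 51948 of 56941 genes, and lengths, exon overlaps and RefSeq promoters also refer to GRCm38.

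Genes were kept with filterByExpr and tested with edgeR 4.0.16 in R 4.3.3 by the quasi-likelihood test, with 1 mean per group over all 12 libraries, TMM factors (0.985 to 1.013) and 5 contrasts. Benjamini-Hochberg adjustment ran over 16794 genes. Low values were in excess at 4 counts, so 1 fragment may be worth more than 1 count, and depth in fragments is then below the totals given. The script was tested on simulated data. The members, lists and tests were chosen with earlier results of these data known. Named genes were the members, Nop16, Myc, Impdh1 and Ctps2. Added to them were up to 2 called genes with the largest change each way per list (otherwise the 2 with the smallest p). The 5 most similar profiles outside all lists were named too. Alternatives were RLE factors, no or a stricter filter (5 CPM in 3 libraries), DESeq2 1.42.0, only the groups compared, the replicate block, and leaving out each library. Library totals, counts divided by 4 and a robust fit were added after the data were seen. Same-numbered libraries were not taken as pairs. Some listed genes are not reported here and were left out of the lists' counts and sums.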

Additional observations from a re-analysis of the deposited data

Results flagged for a closer look

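The difference between the guides in the CIT response was tested as an interaction, and the named genes that passed the threshold are given here. Cad had a difference of log2 responses (sgNop16 minus sgCtr) of 0.18 (adjusted p = 0.0218, between 0.000141 and 0.0812 over the alternatives), which is a weaker fall with the Nop16 guide. Myc had 0.29 (adjusted p = 0.00183) and also fell less with CIT in sgNop16 cells. Adk, Uck2 and Adssl1 were named because they were called, so their values are no independent evidence. Adk had 0.28 (adjusted p = 0.044) and Uck2 0.19 (adjusted p = 0.0248), calls that ended in 11 and 8 of the 12 leave-one-out fits (adjusted p up to 0.13 and 0.0812). Adssl1 rose less with the Nop16 guide (-0.55, adjusted p = 3.83e-05). Atf4 (0.24), Bcat1 (0.30) and Eprs (0.17) were past the threshold too, but they were chosen for a profile like that of the members over the same 12 libraries, which already holds the weaker fall in sgNop16 cells, so their values are a description and not a test.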

How the results depend on the processing

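All 10 members kept the direction of their CIT response with each guide, of their guide difference with CIT and of their interaction under all alternatives, while without CIT 6 of 10 near-zero guide differences changed sign. DESeq2 called 3 members in the interaction in place of 1, and fits without 1 library called 0 to 1. Those fits called 9 to 10 members lower with CIT in sgCtr cells, 5 to 8 in sgNop16 cells, and 4 to 5 higher with the Nop16 guide after CIT. Over all tested genes, the 301 higher and 257 lower calls of the guide without CIT became 622 and 587 with DESeq2, 195 higher with only the groups compared, 160 lower with no low-count filter, and 207 to 238 higher and 138 to 159 lower without 1 library. With CIT, 569 and 465 became 1047 and 911 with DESeq2, and 316 to 394 and 297 to 329 without 1 library. In the interaction, 148 and 210 became 493 and 536 with DESeq2, 83 and 124 with no low-count filter, and 69 to 108 and 130 to 190 without 1 library. From library totals without TMM, the members summed to 2418 CPM in sgCtr_no and 1977 CPM in sgCtr_CIT cells. With the replicate number as a block, 5 members were called higher with the Nop16 guide after CIT in place of 6, Umps being lost (adjusted p = 0.0511). Deviations of same-numbered libraries correlated between -0.045 and 0.023, and those of differently numbered ones between -0.049 and 0.046. The correlation weighs all tested genes alike, low counts included, so whether the numbers mark a shared culture or day was not settled.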
